A study of Mus musculus with 6 samples.

Results

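Collagens are proteins of 3 chains wound into a triple helix, and the genes described here are those that encode their chains. The fibrillar collagens, with types I, III and V among them, build the banded fibrils of interstitial tissue and of scars. The type IV collagens form the sheet-like network of basement membranes: the chains of Col4a1 and Col4a2 are found in nearly every basement membrane, and those of Col4a3, Col4a4 and Col4a5 form the mature network of the glomerular filter, where podocytes secrete them. The other collagens include the beaded filaments of type VI, the fibril-associated types (FACIT), the proteoglycan-like types XV and XVIII of the basement membrane zone, and types anchored in cell membranes. Members were all rows of the gene table whose symbol is Col, a number, the letter a and a number. This rule gave 44 of 17684 genes, of which 11 were fibrillar, 6 were type IV and 27 belonged to the other collagens.

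RNA from kidney was sequenced on the BGISEQ-500 platform for 3 samples of the Db group and 3 of the Db + Ato10 group. Both groups were db/db mice, which lack a working leptin receptor and become obese and diabetic, on the strain labelled C57 BLKS/L, and both were 50 weeks old. The Db group had received normal saline and the Db + Ato10 group atorvastatin, a statin, at 10 mg/kg per day, each for 40 weeks. According to the methods, only males were enrolled and dosing by gavage took place on consecutive days of each week, not on every day. A further label field gives atorvastatin for all 6 samples, and the groups here follow the titles and the treatment label. Whether each library came from its own mouse is not spelled out, so p-values measure only the spread between these samples, which may be technical. The comparison asks which kidney transcripts differ between diabetic mice with and without the statin. The values are expected counts (estimated reads per gene) and TPM (the share of a gene in all transcripts of a library, scaled to length, which can be compared between genes). Library totals were 13134930, 11381678 and 12426051 counts in Db replicates 1 to 3 and 14578023, 14667909 and 13133241 counts in Db + Ato10 replicates 1 to 3. At these depths 3 counts of a gene equal 0.198 to 0.260 CPM (counts scaled to library size), which is taken as the floor for a single library.

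One library went against the stated sex, and 2 of the Db + Ato10 libraries stood apart in different ways. Db replicate 1 held 2 counts over 4 Y-linked genes, while the other 5 libraries held 1419 to 2116. Db + Ato10 replicate 3 lay near the Db libraries: on the first principal component, with 71.1% of the variance, it had a score of -18.8. The Db libraries scored -55.4, -26.9 and -52, and Db + Ato10 replicates 1 and 2 scored 107 and 46.1. Db + Ato10 replicate 1 lay farthest from the Db libraries, with Spearman correlations of 0.834 to 0.863 to them and of 0.922 to Db + Ato10 replicate 2, whose correlation to replicate 3 was 0.957. Several results are therefore also given without one of these libraries. The joint setting, which leaves out Db replicate 1 and Db + Ato10 replicate 3, keeps Db + Ato10 replicate 1. Kidney markers were present in every library, but not at the same level. The 6 proximal tubule markers, led by Slc34a1, summed to 4962, 3847 and 4896 TPM in Db replicates 1 to 3 and to 709.7, 2226 and 4527 TPM in Db + Ato10 replicates 1 to 3.

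Collagen mRNA stood at a higher level in the Db + Ato10 group, and the fibrillar class had the highest ratio of the 3 classes. Summed over all 44 genes it made up 399.8, 364.4 and 299.8 TPM in Db replicates 1 to 3 and 844.1, 606.5 and 372.8 TPM in Db + Ato10 replicates 1 to 3. Db + Ato10 replicates 1 and 2 lay above all Db libraries, and replicate 3 lay within the Db range. By class, the mean summed TPM was 53.9 ± 17.9 (SD, n = 3) in the Db group against 199.9 ± 127 (SD, n = 3) in the Db + Ato10 group for the fibrillar collagens, a ratio of 3.71. For the type IV collagens the means were 187.4 ± 24.3 and 224.0 ± 56.3 (SD, n = 3 each), a ratio of 1.20, and for the other collagens 113.4 ± 16.9 and 183.9 ± 56.1 (SD, n = 3 each), a ratio of 1.62. The fibrillar class was the one whose sums did not overlap between groups, with 37.6 to 73.1 TPM in the Db libraries and 82.6 to 335.1 TPM in the Db + Ato10 libraries. Its ratio came to 4.80 when Db + Ato10 replicate 3 was dropped, to 2.46 when Db + Ato10 replicate 1 was dropped, and to 4.51 when Db replicate 1 was dropped. With Db replicate 1 and Db + Ato10 replicate 3 both left out it was 5.84. The makeup of the collagen mRNA differed as well. Type IV chains gave a mean of 53.0% of collagen TPM in the Db group and 38.4% in the Db + Ato10 group, fibrillar chains 14.9% and 30.6%, and the other collagens 32.1% and 31.0%.

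**Figure D1:**
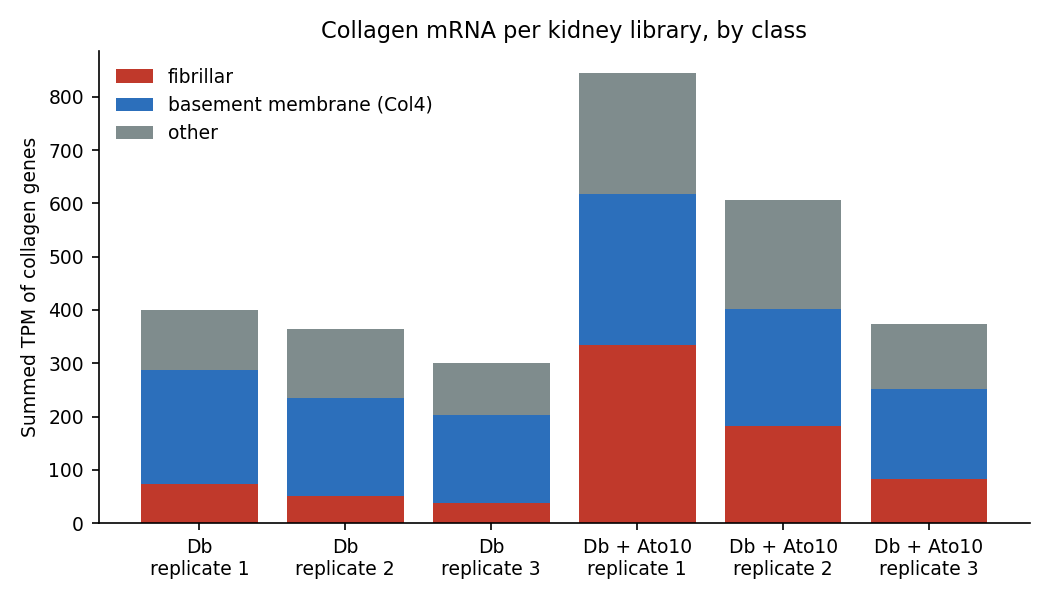
Stacked bars give the summed TPM of the collagen genes in each of the 6 kidney libraries, split into fibrillar (red), type IV (blue) and other (grey) collagens. The total is 844.1 TPM in Db + Ato10 replicate 1 and 606.5 TPM in replicate 2, while replicate 3, with 372.8 TPM, lies within the range of the Db libraries.

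Of the 44 genes, 30 had at least 10 counts in at least 3 libraries and were tested. A gene was called when the edgeR quasi-likelihood test gave an adjusted p (Benjamini-Hochberg) under 0.05 and the fold exceeded 1.5, and by this rule 0 of the 30 collagens were called, as were 0% of the 13679 genes tested. At an unadjusted p under 0.05, with any fold, 15 collagens and 2314 of all genes passed. With the same p and a fold change over 1.5, 14 of 30 collagens were higher in the Db + Ato10 group, against 9.85% of all genes tested, and 0 were lower, against 3.59%. These 14 were 6 of 9 fibrillar, 2 of 6 type IV and 6 of 15 other collagens. Dropping Db replicate 3 lowered the count to 7, and dropping Db + Ato10 replicate 1 lowered it to 9. Over all genes, those at an unadjusted p under 0.05 with any fold fell as well, from 2314 to 1113 and to 1667. In CPM, 11 collagens were higher in every Db + Ato10 library than in any Db library and 1, Col4a4, was lower, where 12% and 11.3% of all genes were. Col17a1, which had fewer than 10 counts in every Db library, is in these counts, and without it they are 14 at an unadjusted p with any fold, 13 with a fold over 1.5 and 10 without overlap. The median log2 fold change was 0.79 over the tested collagens, 2.40 over the fibrillar, 0.24 over the type IV and 0.71 over the other collagens, and -0.006 over all genes tested. When Db + Ato10 replicate 1 was dropped, these medians came to 0.45 over all tested collagens, 1.06 over the fibrillar, -0.001 over the type IV and 0.345 over the other collagens. When Db + Ato10 replicate 3 was dropped, the type IV median came to 0.425.

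The number of calls depended on the tool and on a single library. DESeq2 called 8 collagens higher, where it called 5.17% of all genes higher, and 0 lower, where it called 1.29%. The 8 were Col1a1, Col1a2, Col3a1, Col5a1, Col5a2, Col12a1, Col15a1 and Col17a1, so that 5 were fibrillar, 0 were type IV and 3 were other collagens, and 7 are left without Col17a1. When Db + Ato10 replicate 3 was left out, edgeR called 12 of 29 collagens higher and 0 lower, beside 5.96% and 2.23% of all genes. They comprised 7 of the DESeq2 calls, all but Col17a1, which was not tested there, together with Col4a1, Col4a2, Col5a3, Col6a2 and Col18a1. With Db replicate 1 and Db + Ato10 replicate 3 both left out, edgeR called 0 collagens. In that setting 18 of 29 collagens passed an unadjusted p under 0.05 with any fold, as did 2754 of all 13365 genes tested. Across all settings tried, the smallest adjusted p of any collagen ran from 1.38e-06 in DESeq2 to 0.588 in the edgeR quasi-likelihood test (Benjamini-Hochberg) without Db replicate 1. Differences between the classes were not tested. An exact permutation test of 3 against 3 libraries cannot give a p under 0.1.

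Type I collagen, the main protein of scar fibrils, is made of the chains of Col1a1 and Col1a2. The Col1a1 mRNA (NCBI Gene 12842) was at 1.36, 4.10 and 1.26 TPM in Db replicates 1 to 3 and at 95.9, 51.4 and 6.87 TPM in Db + Ato10 replicates 1 to 3. Every Db + Ato10 library was above every Db library, and replicate 3 was much nearer to the Db libraries than the other 2. Its log2 fold change was 4.63 (SE 1.05), with an edgeR quasi-likelihood adjusted p (Benjamini-Hochberg) of 0.239 and, without Db + Ato10 replicate 3, a log2 fold change of 5.16 and an adjusted p of 0.0265. Without Db + Ato10 replicate 1 the log2 fold change was 3.74, with an edgeR quasi-likelihood adjusted p (Benjamini-Hochberg) of 0.347. The partner chain Col1a2 (Gene 12843) was at 7.72, 13.9 and 7.59 TPM in the Db libraries and at 106.6, 60.1 and 15.5 TPM in the Db + Ato10 libraries. The groups again did not overlap, and the difference was smaller than for Col1a1, with a log2 fold change of 2.75 (SE 0.70). For Col1a2 it was 1.998 without Db + Ato10 replicate 1 and 3.21 without replicate 3. The ratio of Col1a1 to Col1a2 in TPM was 0.176, 0.295 and 0.166 in the Db libraries and 0.8997, 0.855 and 0.443 in the Db + Ato10 libraries. In the type I heterotrimer the Col1a1 chain outnumbers the Col1a2 chain, whereas in all 6 libraries its mRNA was the less abundant of the pair.

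Type III collagen, a homotrimer found with type I in soft tissue and early scars, is encoded by Col3a1 (Gene 12825). Col3a1 was at 2.99, 5.35 and 2.59 TPM in the Db libraries and at 89.4, 49.1 and 13.4 TPM in the Db + Ato10 libraries. The lowest Db + Ato10 library was still above the highest Db library, and the log2 fold change was 3.90 (SE 0.74). It was 3.14 without Db + Ato10 replicate 1 and 4.36 without replicate 3. Together the mRNAs of types I and III summed to 12.1, 23.3 and 11.4 TPM in Db replicates 1 to 3 and to 291.8, 160.5 and 35.8 TPM in Db + Ato10 replicates 1 to 3. They held 16.5%, 45.7% and 30.5% of the fibrillar TPM in the Db libraries and 87.1%, 88.2% and 43.3% in the Db + Ato10 libraries. Col3a1 exceeded Col1a1 in every Db library, by ratios of 2.199, 1.31 and 2.06, and the ratio was 0.933, 0.955 and 1.95 in the Db + Ato10 libraries.

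Type V collagen sits inside type I fibrils and sets their diameter. Col5a2 was at 1.44, 1.69 and 0.73 TPM in the Db libraries and at 20.2, 7.15 and 1.53 TPM in the Db + Ato10 libraries. Col5a1 was at 1.05, 1.68 and 1.09 TPM against 9.92, 3.73 and 1.38 TPM, and Col5a3 at 0.36, 0.44 and 0.57 TPM against 4.77, 1.47 and 0.35 TPM. For all 3 genes Db + Ato10 replicates 1 and 2 were above the Db libraries. Replicate 3 was within the Db range for Col5a2 and Col5a1, and for Col5a3 it was just below all Db libraries in TPM and within their range in CPM, so the groups overlapped. Their log2 fold changes were 3.03 (SE 0.92), 2.10 (SE 0.71) and 2.40 (SE 0.90), and over types I, III and V the edgeR quasi-likelihood adjusted p (Benjamini-Hochberg) ran from 0.239 to 0.269. Without Db + Ato10 replicate 1 these 3 values were 1.80, 1.06 and 1.05, and without replicate 3 they were 3.54, 2.56 and 2.90.

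Col27a1 ran the other way. This fibrillar chain, best known from developing cartilage, was the most abundant fibrillar mRNA in the Db libraries, at 56.6, 23.2 and 23.3 TPM. In the Db + Ato10 libraries it was at 6.63, 8.30 and 42.8 TPM. Replicates 1 and 2 of the Db + Ato10 group were below all Db libraries, while replicate 3 was within the Db range. The log2 fold change was -0.75 (SE 0.78) and was -2.12 without Db + Ato10 replicate 3, where the edgeR quasi-likelihood adjusted p (Benjamini-Hochberg) was 0.0527, and -0.16 without Db replicate 1. Col27a1 alone held 77.4%, 45.6% and 61.9% of the fibrillar TPM in the Db libraries, and 1.98%, 4.56% and 51.8% in the Db + Ato10 libraries. With Col27a1 set aside, the fibrillar sum was 16.5, 27.8 and 14.3 TPM in the Db libraries and 328.5, 173.8 and 39.8 TPM in the Db + Ato10 libraries. The remaining fibrillar genes were low. Col11a2 and Col24a1 were under 1 TPM in every library with log2 fold changes of 0.17 (SE 0.63) and 0.07 (SE 0.80), and Col11a1 and Col2a1 were not tested. The sign was not stable for either: for Col24a1 the value turned to -0.67 when Db + Ato10 replicate 1 was dropped and to -0.37 when Db replicate 3 was, and for Col11a2 to -0.185, -0.08 and -0.15 when Db replicate 2, Db replicate 3 or Db + Ato10 replicate 1 was. When Db replicate 1 was dropped, the values were 0.76 for Col24a1 and 1.09 for Col11a2.

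**Figure D2:**
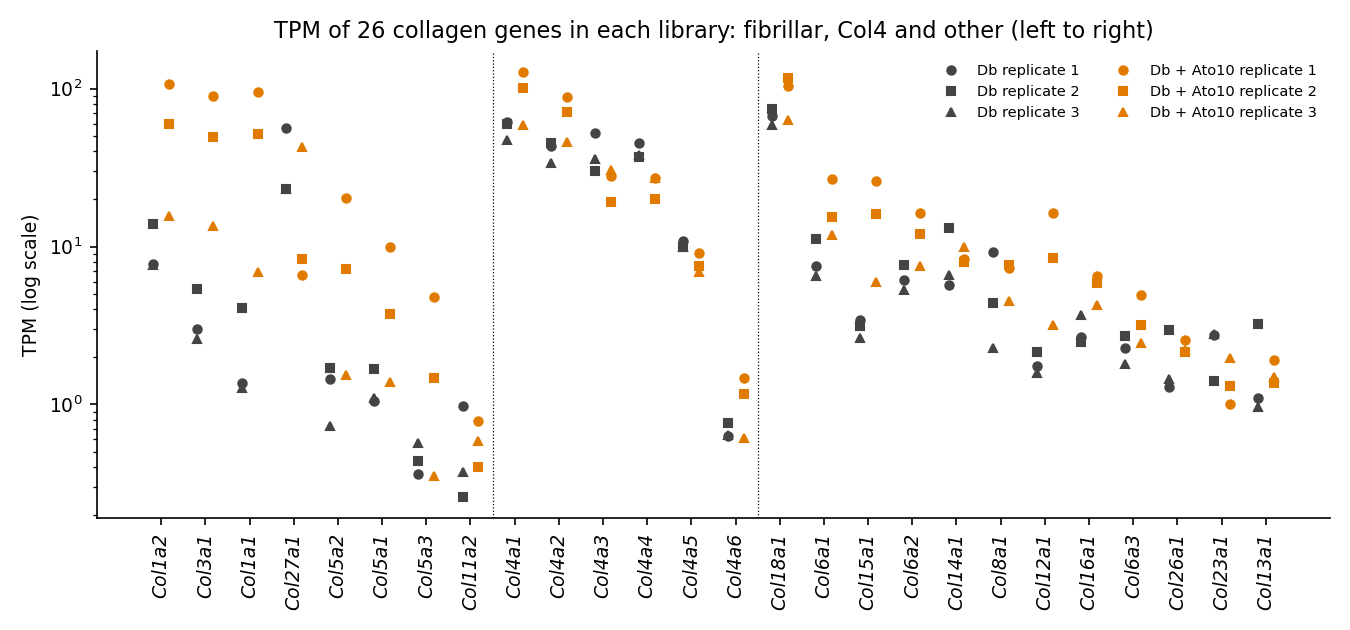
Each point is the TPM (log scale) of 1 of 26 collagen genes in 1 library, in dark grey for Db and in orange for Db + Ato10, with circles, squares and triangles for replicates 1, 2 and 3. Col1a1, Col1a2 and Col3a1 are higher in all Db + Ato10 libraries, while Col27a1 is at 6.63 and 8.30 TPM in Db + Ato10 replicates 1 and 2, below the Db libraries.

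Of the 6 type IV genes, 3 had positive and 3 negative log2 fold changes, 2 passed the unadjusted rule as higher and 0 as lower, and the difference between them was not tested. Col4a1 (Gene 12826) was at 61.4, 60.0 and 47.5 TPM in the Db libraries and at 127.6, 101.2 and 58.5 TPM in the Db + Ato10 libraries. Col4a2 (Gene 12827) was at 43.0, 45.2 and 33.7 TPM against 88.6, 71.1 and 46.1 TPM. Both were high in Db + Ato10 replicates 1 and 2. In replicate 3 Col4a2 was just above the Db libraries and Col4a1 was within their TPM range, although scaled as CPM neither gene overlapped. The log2 fold changes were 0.86 (SE 0.32) and 0.85 (SE 0.28). With Db + Ato10 replicate 3 left out they were 1.12 and 1.07, with edgeR quasi-likelihood adjusted p (Benjamini-Hochberg) of 0.0420 and 0.0441, in place of 0.265 and 0.239. With Db + Ato10 replicate 1 left out they were 0.55 and 0.58, with edgeR quasi-likelihood adjusted p (Benjamini-Hochberg) of 0.423 and 0.381.

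The chains of the mature glomerular network stood lower or level. Col4a3 (Gene 12828) was at 52.3, 30.3 and 35.9 TPM in the Db libraries and at 28.0, 19.1 and 30.4 TPM in the Db + Ato10 libraries. Col4a4 (Gene 12829) was at 45.4, 37.0 and 37.9 TPM against 27.4, 20.1 and 27.2 TPM, and Col4a5 at 10.8, 9.86 and 9.91 TPM against 9.12, 7.47 and 6.87 TPM. For Col4a4 all Db + Ato10 libraries, replicate 3 included, were below all Db libraries, whereas Col4a3 overlapped by a narrow margin and Col4a5 was apart in TPM but not in CPM. Their log2 fold changes were -0.52 (SE 0.29), -0.56 (SE 0.20) and -0.29 (SE 0.17). For Col4a3 the value was -0.25 when Db replicate 1 was dropped and -0.30 when Db + Ato10 replicate 2 was, and for Col4a5 it was -0.45 when Db + Ato10 replicate 1 was. None was called by edgeR with or without Db + Ato10 replicate 3 or by DESeq2, although Col4a4 had an unadjusted p of 0.0283. Col4a6, whose chain pairs with that of Col4a5 in the capsule of the glomerulus, was at 0.63, 0.76 and 0.64 TPM against 1.46, 1.16 and 0.61 TPM. It was higher in Db + Ato10 replicates 1 and 2 alone, with a log2 fold change of 0.77 (SE 0.37). Without Db + Ato10 replicate 1 the value was 0.45, and without replicate 3 it was 1.05.

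Of 3 pairs of type IV genes whose chains assemble together, 2 had overlapping ratios in the 2 groups and 1 did not. Ratios of other gene pairs were not taken as a background, so this is a description only. Col4a1 over Col4a2 in TPM was 1.43, 1.33 and 1.41 in the Db libraries and 1.44, 1.42 and 1.27 in the Db + Ato10 libraries. Col4a3 over Col4a4 was 1.151, 0.819 and 0.948 against 1.02, 0.949 and 1.12. Both ratios overlapped between groups. For the third pair, Col4a5 over Col4a6, the ratio was 17.1, 13.0 and 15.5 in the Db libraries and 6.25, 6.44 and 11.3 in the Db + Ato10 libraries, with no overlap. This ratio rests on the low Col4a6, with 30 to 33 counts in the Db libraries and 32 in Db + Ato10 replicate 3. The summed TPM of Col4a1 and Col4a2 over that of Col4a3, Col4a4 and Col4a5 was 0.963, 1.36 and 0.969 in the Db libraries and 3.35, 3.69 and 1.62 in the Db + Ato10 libraries, with no overlap. The 8 podocyte markers, with Podxl the most abundant, summed to 278.5, 207.7 and 207.0 TPM in the Db libraries. In the Db + Ato10 libraries they summed to 336.3, 123.5 and 188.0 TPM, and their part in the type IV ratios was not tested. They were highest in Db + Ato10 replicate 1 and lowest in replicate 2, and 1 of 8 was higher at an unadjusted p under 0.05 with a fold change over 1.5, where 9.85% of all genes were. The 8 endothelial markers, led by Emcn, summed to 253.6, 211.6 and 235.0 TPM against 269.3, 115.8 and 212.4 TPM. Of these, 6 had a negative log2 fold change. By the unadjusted rule 0 were higher and 1, Kdr, was lower, where 9.85% and 3.59% of all genes were. The 6 mesangial markers, led by Sept4, summed to 86.4, 116.7 and 117.9 TPM against 111.7, 84.9 and 97.4 TPM. In bulk RNA, fewer cells of a type and less RNA per cell cannot be told apart.

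**Figure D3:**
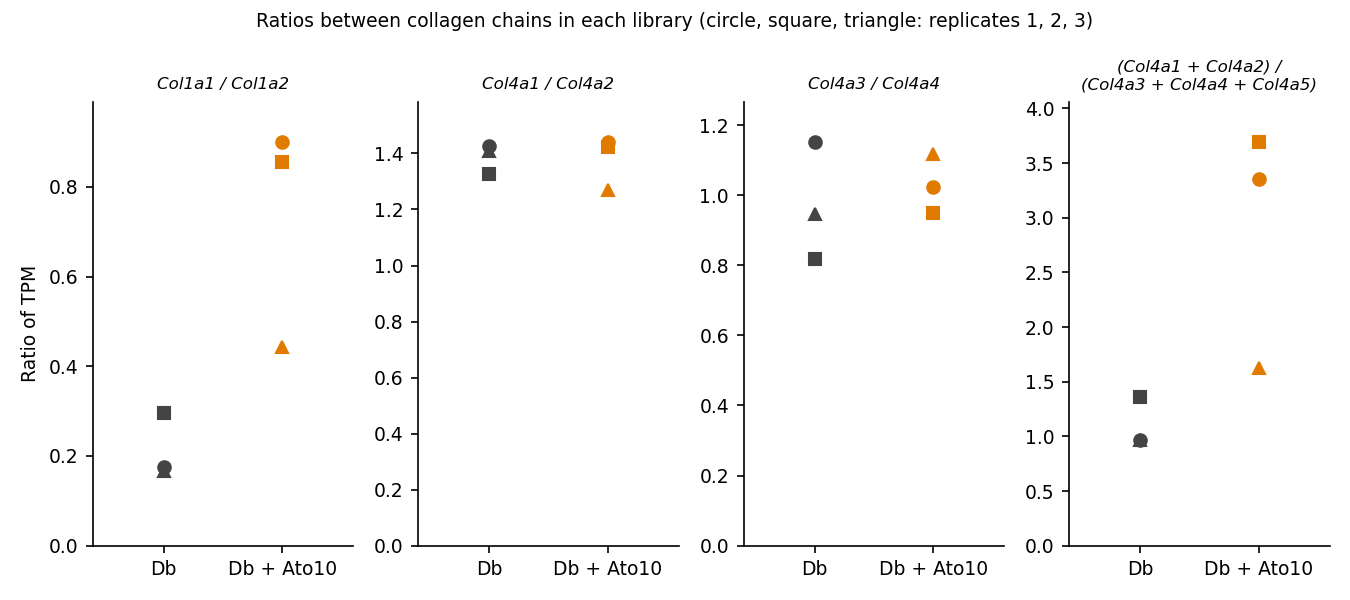
Points give ratios of TPM between collagen chains in each library, in dark grey for Db and in orange for Db + Ato10, on axes that start at 0. Col4a1 over Col4a2 stays between 1.27 and 1.44, whereas Col4a1 and Col4a2 over Col4a3, Col4a4 and Col4a5 is at most 1.36 in the Db libraries and at least 1.62 in the Db + Ato10 libraries.

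Among the other collagens the highest level was that of Col18a1, which carries the precursor of endostatin and lies in the basement membrane zone. Col18a1 was at 66.7, 74.2 and 58.6 TPM in the Db libraries and at 103.5, 117.5 and 63.4 TPM in the Db + Ato10 libraries. It was above the Db range in replicates 1 and 2 only, with a log2 fold change of 0.59 (SE 0.25). Its relative Col15a1, a linker between basement membranes and fibrils, was at 3.40, 3.15 and 2.64 TPM against 25.8, 16.1 and 5.92 TPM. All Db + Ato10 libraries were above all Db libraries, and the log2 fold change was 2.48 (SE 0.53), with 0.239 as the edgeR quasi-likelihood adjusted p (Benjamini-Hochberg) and 0.0233 without Db + Ato10 replicate 3. Without Db + Ato10 replicate 1 the log2 fold change was 1.885, with 0.347 as the edgeR quasi-likelihood adjusted p (Benjamini-Hochberg).

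Type VI collagen forms beaded filaments around cells. Col6a1 was at 7.54, 11.1 and 6.46 TPM in the Db libraries and at 26.9, 15.4 and 11.8 TPM in the Db + Ato10 libraries. Col6a2 was at 6.15, 7.65 and 5.31 TPM against 16.2, 11.96 and 7.47 TPM, and Col6a3 at 2.29, 2.72 and 1.81 TPM against 4.92, 3.17 and 2.43 TPM. The groups were apart for Col6a1 and overlapped in TPM for Col6a2 and Col6a3, in each case through Db replicate 2 and Db + Ato10 replicate 3. The log2 fold changes were 1.21 (SE 0.38), 0.98 (SE 0.32) and 0.71 (SE 0.32). Without Db + Ato10 replicate 1 these values were 0.75, 0.64 and 0.35, and without replicate 3 they were 1.45, 1.23 and 0.92. Col6a1 over Col6a2 lay between 1.22 and 1.66 in all libraries. Col6a1 over Col6a3 did not overlap, at 3.29, 4.10 and 3.57 in the Db libraries and 5.47, 4.85 and 4.86 in the Db + Ato10 libraries.

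The FACIT members attach to fibril surfaces. Col12a1 was at 1.74, 2.14 and 1.57 TPM in the Db libraries and at 16.3, 8.46 and 3.17 TPM in the Db + Ato10 libraries, with no overlap and a log2 fold change of 2.47 (SE 0.58). Its log2 fold change was 1.73 without Db + Ato10 replicate 1 and 2.89 without replicate 3. Col16a1 was at 2.66, 2.48 and 3.66 TPM against 6.52, 5.85 and 4.23 TPM, also with no overlap, and its log2 fold change was 0.88 (SE 0.26). Col14a1, at 5.69 to 13.1 TPM in the Db libraries and 7.99 to 9.97 TPM in the Db + Ato10 libraries, overlapped fully, and its log2 fold change of 0.14 (SE 0.33) turned to -0.07 without Db replicate 1 and to -0.01 without Db replicate 3. The fourth tested FACIT gene, Col20a1, was at 1.58, 1.00 and 1.53 TPM against 0.98, 1.01 and 0.82 TPM, with a log2 fold change of -0.47 (SE 0.27). Col8a1, a short-chain collagen of vessels, was at 2.29 to 9.21 TPM in the Db libraries and 4.50 to 7.64 TPM in the Db + Ato10 libraries, with a log2 fold change of 0.38 (SE 0.50) that moved to 1.06 when Db replicate 1 was dropped and to 0.02 when Db replicate 3 was. The values for Col26a1, Col23a1 and Col13a1 were 0.25 (SE 0.35), -0.62 (SE 0.38) and -0.03 (SE 0.53), at levels of at most 3.22 TPM, and the sign for Col13a1 changed under several settings. Col26a1 ran from 0.05 without Db replicate 1 to 0.63 without Db replicate 2. Col23a1 ran from -0.435 without Db + Ato10 replicate 1 to -0.92 without Db + Ato10 replicate 3.

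Col17a1 was singled out after its values were seen. It encodes a transmembrane collagen that anchors basal epithelial cells of skin and other stratified epithelia. It had 1, 2 and 1 counts in the Db libraries and 92, 93 and 11 counts in the Db + Ato10 libraries, or 4 against 196 counts per group. Per read depth the ratio was 41.9, with an exact 95% interval of 16.1 to 155 that covers counting error only. Each Db library is under the floor of 3 counts, so this ratio rests on 4 reads of the Db group. In TPM it was at 0.03, 0.06 and 0.03 against 1.69, 1.95 and 0.25, so all Db + Ato10 libraries were above all Db libraries at a low level. Col17a1 was the only tested collagen with fewer than 10 counts in every Db library, so it passed the filter on low counts through the group in which it is high. The basal squamous and urothelial markers, 11 genes with Krt20 the most abundant, were higher as a sum but not in every gene. They summed to 8.17, 6.54 and 5.65 TPM in the Db libraries and to 166.5, 121.5 and 34.2 TPM in the Db + Ato10 libraries. Of these, 4 of 5 tested were higher at an unadjusted p under 0.05 with a fold change over 1.5, where 9.85% of all genes were. Among them Krt5 and Krt14 had fewer than 10 counts in every Db library, so that, like Col17a1, they passed the filter through the Db + Ato10 libraries, and without them 2 of 3 were higher. Both are also in the sums above, at 54.5 and 31.4 TPM in Db + Ato10 replicate 1. The fifth, Upk1a, was lower with a log2 fold change of -0.66 (SE 0.44). Upk1b, Upk2 and Upk3a were not tested, and for each of them Db + Ato10 replicate 3 lay within the Db range. Krt6a, Krt13 and Dsg3 were listed at 0 in every Db library and had at most 2 counts in any Db + Ato10 library, which is under the floor of 3 counts. Their part in the level of Col17a1 was not tested.

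The 14 members that were not tested had between 1 and 47 counts over the 6 libraries together. They were Col11a1 and Col2a1 of the fibrillar class and Col6a4, Col6a5, Col6a6, Col8a2, Col9a1, Col9a2, Col9a3, Col10a1, Col19a1, Col22a1, Col25a1 and Col28a1 of the others. None exceeded 1.09 TPM, the value of Col10a1 in Db + Ato10 replicate 2. Col2a1 and Col9a1 to Col9a3, the collagens that define cartilage, were at 0.29 TPM or less in every library. The cartilage and bone markers were low too: the 5 found in the table, led by Chad, summed to at most 1.38 TPM, 0 were tested and Ibsp was listed at 0 in every Db library. The last tested member, Col7a1 of the anchoring fibrils, had a log2 fold change of 0.81 (SE 0.49), which was 1.30 when Db replicate 1 was dropped and 0.34 when Db + Ato10 replicate 1 was.

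**Figure D4:**
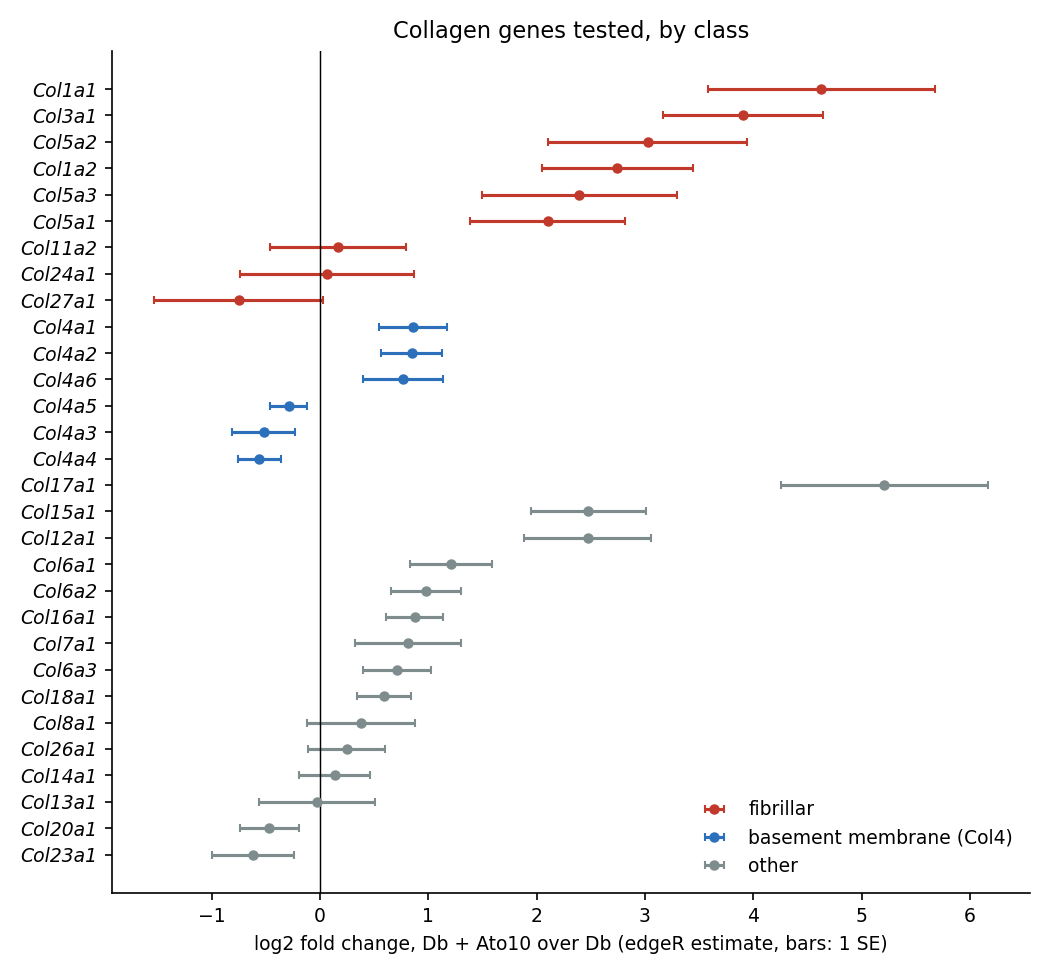
Points give the edgeR log2 fold change (Db + Ato10 over Db) of the 30 tested collagens, with bars of 1 SE, sorted within fibrillar (red), type IV (blue) and other (grey) genes. Types I, III and V reach from 2.10 to 4.63, Col27a1 lies at -0.75, and Col4a1, Col4a2 and Col4a6 lie above 0 while Col4a3, Col4a4 and Col4a5 lie below it.

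Markers of cells that make or accompany collagen were also at other levels in the Db + Ato10 libraries. The fibroblast markers, with 8 of 9 in the table and Dcn the most abundant, summed to 32.7, 57.3 and 52.5 TPM in the Db libraries and to 334.0, 63.7 and 62.9 TPM in the Db + Ato10 libraries. The 8 myofibroblast and smooth muscle markers, led by Myl9, summed to 156.7, 131.8 and 112.4 TPM against 350.2, 163.9 and 132.8 TPM. Both sums were far above the Db range in Db + Ato10 replicate 1 and nearer to it in replicates 2 and 3, but Dcn and Myl9 weigh heavily in them. In replicate 2, 4 of 8 fibroblast markers were above the Db range and 4 within it, and of the 8 myofibroblast and smooth muscle markers 5 were above, 2 within and 1, Myl9, below. All 8 macrophage markers were higher at an unadjusted p under 0.05 with a fold change over 1.5, where 9.85% of all genes were, and they summed to 146.0, 324.5 and 227.6 TPM against 6757, 1970 and 335.3 TPM, with Lyz2 the most abundant. The 7 neutrophil markers, led by S100a9, summed to 22.4, 34.7 and 15.6 TPM against 42610, 395.4 and 37.8 TPM, and the 8 lymphocyte markers, led by Jchain, to 2.18, 19.8 and 5.29 TPM against 256.2, 100.3 and 7.61 TPM. Like the fibrillar collagens, the leukocyte sums were highest in Db + Ato10 replicate 1 and lowest of the treated group in replicate 3. Adipocyte markers, with 4 of 5 in the table, Cidec the most abundant and Retn listed at 0 in every Db library, summed to no more than 2.06 TPM. The part of these cells, and of the lower proximal tubule RNA, in the collagen levels was not tested.

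Collagen chains are modified and folded in the endoplasmic reticulum, trimmed and cross-linked outside the cell, and bound there by receptors and other matrix proteins. Of the 80 genes in 5 lists of such partners, 75 were tested and edgeR called 0, while 24 passed an unadjusted p under 0.05, 21 higher and 3 lower, all with a fold change over 1.5, beside 9.85% and 3.59% of all genes. DESeq2 called 15 higher and 1 lower, beside 5.17% and 1.29% of all genes, and edgeR without Db + Ato10 replicate 3 called the same numbers, beside 5.96% and 2.23%. These shares hold for each list below as well. Most genes named below were the 3 of their list with the smallest p, so their separation between groups follows in part from that choice. In CPM, 12% of all tested genes were higher and 11.3% lower without overlap. In the lists, in the order below, 5 of 20, 4 of 13, 3 of 9, 5 of 17 and 3 of 16 were higher in this way. Lower in this way were 2, 0, 0, 0 and 1. The median log2 fold change over the 75 was 0.46.

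Of the 20 tested genes for folding and modification, 3 were higher and 2 lower by the unadjusted rule, with a median log2 fold change of 0.30. Fkbp10, a chaperone needed for cross-linking of type I collagen, was at 2.77, 3.50 and 2.54 TPM in the Db libraries and at 17.7, 8.76 and 5.92 TPM in the Db + Ato10 libraries. The groups were apart, with a log2 fold change of 1.99 (SE 0.46). The glycosyltransferases of collagen went in opposite directions: Colgalt1 was at 19.7, 21.2 and 21.9 TPM against 34.7, 27.8 and 26.8 TPM, and Colgalt2 at 9.56, 10.2 and 8.96 TPM against 4.91, 2.37 and 4.87 TPM. Neither overlapped between groups. P3h2, a prolyl hydroxylase with type IV collagen among its substrates, was singled out after its values were seen. It was at 138.1, 84.7 and 115.5 TPM in the Db libraries and at 27.6, 20.3 and 67.8 TPM in the Db + Ato10 libraries, so all 3 were lower, with a log2 fold change of -1.46 (SE 0.48). The collagen chaperone Serpinh1, the usual companion of collagen synthesis and likewise chosen after its values were seen, overlapped at 93.7, 51.0 and 49.6 TPM against 115.8, 64.1 and 45.3 TPM.

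In the list for trimming and cross-linking, 5 of 13 tested genes were higher and 0 lower by the unadjusted rule, with a median log2 fold change of 1.11. Adamts2, which removes the amino-terminal propeptide of types I and III, was at 0.73, 1.09 and 0.68 TPM in the Db libraries and at 10.8, 3.95 and 1.14 TPM in the Db + Ato10 libraries. Bmp1, which removes the carboxy-terminal propeptide, was at 6.48, 6.57 and 7.79 TPM against 29.9, 16.4 and 8.49 TPM, and the cross-linking enzyme Loxl3 at 0.82, 1.63 and 1.02 TPM against 7.39, 2.43 and 1.93 TPM. None of the 3 overlapped between groups, though replicate 3 was close to the Db libraries. The log2 fold changes were 2.78 (SE 0.80), 1.52 (SE 0.47) and 1.88 (SE 0.62).

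Of the 9 tested receptors, 2 were higher and 0 lower by the unadjusted rule, with a median log2 fold change of 0.73. Mrc2, an uptake receptor for collagen fragments, was at 4.84, 6.57 and 4.64 TPM in the Db libraries and at 13.5, 12.3 and 6.87 TPM in the Db + Ato10 libraries. Lair1, an inhibitory collagen receptor of leukocytes, was at 1.05, 1.20 and 0.89 TPM against 7.92, 5.95 and 1.24 TPM, and the discoidin receptor Ddr2 at 2.00, 2.32 and 1.97 TPM against 5.27, 2.36 and 2.38 TPM. No overlap was seen, but for Lair1 and Ddr2 the lowest Db + Ato10 value almost met the highest Db value. Gp6 was listed at 0 in every Db library.

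Interstitial and basement membrane partners are given side by side, and the difference between them was not tested. Of 17 interstitial genes 8 were higher and 1 lower by the unadjusted rule, with a median log2 fold change of 1.48, while of 16 basement membrane genes 3 were higher and 0 lower, with a median of 0.08. Fibronectin (Fn1) was at 5.59, 7.25 and 3.34 TPM in the Db libraries and at 86.1, 32.0 and 7.59 TPM in the Db + Ato10 libraries. Tenascin C (Tnc) was at 1.83, 1.29 and 2.74 TPM against 12.9, 8.85 and 3.08 TPM, and Sparc, which binds collagen, at 52.9, 72.2 and 38.5 TPM against 287.5, 114.6 and 76.4 TPM. All 3 were higher in every Db + Ato10 library, with log2 fold changes of 3.07 (SE 0.86), 2.24 (SE 0.55) and 1.66 (SE 0.55). Among the basement membrane genes, Lama5 was at 16.5, 18.9 and 17.3 TPM against 30.8, 28.2 and 21.5 TPM. Lamb3, a laminin chain of stratified epithelia, was at 0.52, 0.61 and 0.81 TPM against 7.90, 5.77 and 0.84 TPM, and agrin (Agrn) at 24.9, 29.0 and 27.5 TPM against 51.0, 74.7 and 29.3 TPM. They did not overlap either, and their log2 fold changes were 0.70 (SE 0.18), 3.01 (SE 0.80) and 0.98 (SE 0.30).

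The transcript table held 112 transcripts of the collagen genes, of which 46 were tested. The edgeR test called 0 of them and 0% of the 30175 transcripts tested, and 15 passed an unadjusted p under 0.05, as did 8.19% of all. DESeq2 called 7 higher, beside 1.9% of all transcripts, and 1 lower, beside 1.05%. One transcript of Col5a3 had fewer than 10 reads in every Db library and passed the filter through the Db + Ato10 libraries, and without it 14 passed the unadjusted p and DESeq2 called 6 higher. More than 1 transcript was tested for 12 genes. For Col5a3, a transcript with 15, 17 and 23 estimated reads in the Db libraries had 149, 0 and 0 in the Db + Ato10 libraries, and the other had 1, 1 and 2 against 139, 78 and 17. The second, which is the one with fewer than 10 reads in every Db library, was higher in every Db + Ato10 library, and the first was higher in replicate 1 alone. For Col4a4 the major transcript had 2701, 2079 and 2250 reads against 2356, 1530 and 1866, with a log2 fold change of -0.47 (SE 0.20). The minor transcript, at 268, 160 and 203 against 124, 77 and 100, had a log2 fold change of -1.24 (SE 0.31) and is the lower call of DESeq2, which did not call the gene. For Col15a1 the log2 fold changes were 2.32 (SE 1.42) and 2.59 (SE 0.60), and for Col18a1 they were 0.66 (SE 0.27), 0.78 (SE 0.61) and 0.39 (SE 0.25). For Col16a1 they were 0.90 (SE 0.51), -0.15 (SE 0.72) and 1.63 (SE 0.58), so 1 of its 3 transcripts did not follow the gene. All 4 tested transcripts of Col27a1 were negative, from -0.59 (SE 1.65) to -0.90 (SE 0.82). Over the transcripts of Col14a1, Col4a5, Col4a6, Col5a1, Col6a2 and Col6a3 the log2 fold change ran from -0.52 (SE 1.91) for 1 of Col6a3 to 2.43 (SE 1.07) for 1 of Col5a1. Estimated reads are divided among transcripts that share exons, so values of single transcripts are less certain than gene totals.

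The type IV genes lie in head-to-head pairs, which is a feature the selection did not use. RefSeq promoter windows of GRCm38.p6, from 250 bases before to 50 bases after each gene start, were found for 35 of the 44 genes, 38 windows in all. Col4a1 and Col4a2 start on opposite strands of chromosome 8 so close together that their windows share 78 bases and the genes themselves overlap by 22 bases. Where counting does not use strand, reads from those 22 bases cannot be assigned to either gene. This pair had log2 fold changes of 0.86 and 0.85. Col4a5 and Col4a6 start 1343 bases apart on chromosome X and had log2 fold changes of -0.29 and 0.77. For Col4a3 no window was found, so its distance from Col4a4 was not measured. Col4a3 and Col4a4 had log2 fold changes of -0.52 and -0.56. The windows of the first pair are shown because the levels of the pair differed alike, with the shared bases in capitals, and each is printed on its own strand. They lie at chr8:11312777-11313076 on the minus strand and chr8:11312555-11312854 on the plus strand.
Col4a1: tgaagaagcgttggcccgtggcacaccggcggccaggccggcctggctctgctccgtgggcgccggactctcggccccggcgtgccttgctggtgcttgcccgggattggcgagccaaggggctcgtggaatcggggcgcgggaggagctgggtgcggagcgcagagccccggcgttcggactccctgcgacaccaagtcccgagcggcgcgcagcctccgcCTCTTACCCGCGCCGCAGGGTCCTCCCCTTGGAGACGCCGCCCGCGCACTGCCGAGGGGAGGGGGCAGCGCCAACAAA
Col4a2: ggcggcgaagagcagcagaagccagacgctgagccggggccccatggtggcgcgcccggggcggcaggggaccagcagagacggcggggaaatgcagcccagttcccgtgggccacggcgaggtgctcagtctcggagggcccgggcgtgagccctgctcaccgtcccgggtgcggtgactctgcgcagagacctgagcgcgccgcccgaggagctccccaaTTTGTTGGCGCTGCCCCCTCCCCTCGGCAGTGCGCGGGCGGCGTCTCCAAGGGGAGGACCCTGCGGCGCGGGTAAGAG

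The fibrillar windows are shown for Col1a2 and Col3a1, which were higher together, and for Col27a1, which was not. They lie at chr6:4505368-4505667, chr1:45311288-45311587 and chr4:63215162-63215461, all on the plus strand of GRCm38.p6. Capitals mark matches on either strand to the CCAAT box (CCAAT, or ATTGG on the other strand), to the TATA box (TATAAA, or TTTATA on the other strand) and to the GC box (GGGCGG, or CCGCCC on the other strand).
Col1a2: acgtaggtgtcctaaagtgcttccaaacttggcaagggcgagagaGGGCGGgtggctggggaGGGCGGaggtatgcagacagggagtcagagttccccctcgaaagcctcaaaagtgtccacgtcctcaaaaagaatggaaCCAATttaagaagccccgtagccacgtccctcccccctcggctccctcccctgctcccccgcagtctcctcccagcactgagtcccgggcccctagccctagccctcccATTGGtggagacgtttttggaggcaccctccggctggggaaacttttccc
Col3a1: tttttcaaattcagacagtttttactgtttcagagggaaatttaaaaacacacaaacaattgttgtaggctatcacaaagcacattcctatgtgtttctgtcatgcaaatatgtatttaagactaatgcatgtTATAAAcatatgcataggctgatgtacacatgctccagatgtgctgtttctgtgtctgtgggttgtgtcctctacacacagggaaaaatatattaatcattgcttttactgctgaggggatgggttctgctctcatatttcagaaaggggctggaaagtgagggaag
Col27a1: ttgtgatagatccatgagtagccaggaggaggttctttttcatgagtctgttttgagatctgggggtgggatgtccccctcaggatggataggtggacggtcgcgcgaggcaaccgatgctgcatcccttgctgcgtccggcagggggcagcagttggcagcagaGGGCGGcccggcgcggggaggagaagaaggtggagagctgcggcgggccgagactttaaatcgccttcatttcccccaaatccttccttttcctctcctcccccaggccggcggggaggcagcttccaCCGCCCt
The Col1a2 window held 2 matches to CCAAT, 0 to TATAAA and 2 to GGGCGG. The Col3a1 window held 0, 1 and 0, and the Col27a1 window 0, 0 and 2. Col1a2 and Col3a1 thus shared none of the 3 motifs, and their content of G and C was 61% and 37.7%, with 61.7% for Col27a1 and a median of 60% over the collagen windows and 52.7% over all windows. CCAAT was in 13 of 38 collagen windows (34.2%) and in 37.4% of all 32851 windows, TATAAA in 5 (13.2%) and 13.6%, and GGGCGG in 23 (60.5%) and 35.7%. A match is a description of the letters and not of a bound factor.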

How the data were processed

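The authors deposited expected counts (estimated reads, not normalized) per gene and per transcript, with TPM (scaled to transcript length and to the same sum in every library) and FPKM (scaled to length and library size). The submitters' processing notes name HISAT, Bowtie2 2.2.5 and mm9, without their roles. The counter is not given in the sources used here. Expected counts, of which 91.3% per gene equalled a whole number exactly (no tolerance), were rounded. Fitted were genes that reached 10 counts in 3 or more libraries, by edgeR 4.0.16 (TMM, quasi-likelihood test, Benjamini-Hochberg over all genes) in R 4.3.3, and transcripts likewise. SE is the log2 fold change over the square root of F. Alternatives used DESeq2 1.42.0, limma 3.58.1, other scalings and filters, the replicate block and each library left out. The fits were run on simulated counts with known changes. This checked that the direction and size of the changes came back, and not the error rates in these data. No 2 of the 6 libraries held identical counts (0 of 15 pairs).

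Genes described in full were the tested members with the highest mean TPM, up to 8 fibrillar, all type IV and up to 12 other, and the 3 genes of each partner list with the smallest p. Members and lists were chosen with earlier results of these data known. Of 176 list entries, 171 were in the gene table, and Meg3, Acan, Bglap, Sp7 and Lep were not. The RefSeq table of GRCm38.p6 gave names and promoter sequences only. Python 3.11.15 with matplotlib 3.10.9 made the figures.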

Additional observations from a re-analysis of the deposited data

How the results depend on the processing

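Direction held for most collagens. Over 26 genes and 415 values under other settings, 382 kept direction and side of the threshold, 19 passed it and 14, of 3 genes, changed sign (Col24a1, outside these 26, did so too). Where a value below moved, the cause was not tested unless the setting leaves out libraries. DESeq2 called 884 genes, 8 collagens, 16 partner genes and 8 collagen transcripts, against 0 each in edgeR. Of all genes, limma on log2(TPM + 0.1) called 1.

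The Col13a1 log2 fold change (-0.026) was 0.191 in limma-voom, 0.003 with at least 10 counts in every library, 0.169 with the replicate block, 0.038 on log2(FPKM + 1) and 0.052 on log2(TPM + 0.1). The replicate block called 0 genes and 0 collagen transcripts. Correlations of deviations between same-numbered libraries were -0.151, 0.0613 and 0.208, and 3 of 6 libraries correlated best with their own number, so the numbers do not pair the samples.

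With each library left out in turn, Col13a1 ran from -0.33 to 0.763, Col14a1 from -0.067 to 0.596 and Col11a2 from -0.185 to 1.091. Called were 0 to 1106 genes, 0 to 12 collagens and 0 to 16 partner genes, the highest each time without Db + Ato10 replicate 3. Collagens higher at an unadjusted p under 0.05 numbered 7 to 16, while 1043 to 4038 of all genes passed that p in either direction. Those higher without overlap numbered 10 to 19. Groups of fewer libraries separate more readily and no share over all genes is given for them, so this range carries no reading about collagens. The type IV median ran from -0.001 to 0.425, and on log2(TPM + 1) it was -0.031. For the fibrillar class the median (2.40) was 1.75 in limma-voom and 1.51 on log2(TPM + 0.1). It was 1.14 on log2(TPM + 1) and 1.06 on log2(FPKM + 1). On log2(TPM + 1) the medians over all tested and over the other collagens were 0.449 and 0.433.

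Leaving out Db replicate 1 and Db + Ato10 replicate 3 together, chosen after seeing the data, gave 19 collagens higher without overlap and -0.177 for Col14a1. Groups of fewer libraries separate more readily, so this count cannot be set against the 12% of all genes found with every library. Genes under 3 counts lie below what these depths can show.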
